A study of Arabidopsis thaliana with 6 samples.

Results

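Cytochrome P450 genes were taken as the protein-coding genes of the RefSeq gene table of Arabidopsis thaliana whose symbol is CYP, a number, a letter and a number, without the CYP707A genes, CYP701A3 and the CYP88A genes. The table holds 219 such symbols, of which 5 were left out, so that 214 of 27444 nuclear protein-coding genes were members. By the number in the symbol they fall into 38 families. The data are peak lists of chromatin isolation by RNA purification (ChIRP), in which biotinylated antisense probes pull down an RNA with the DNA near it, here the noncoding RNA HID1. The material was seeds of the Col-0 ecotype with the phyB-on treatment, 5 min of red light, which activates the light receptor phytochrome B, and 48 h of darkness. All groups share this genotype and treatment, and the labels name no mutant or transgene. The 6 libraries are 2 with HID1 probes, 2 mock libraries with unlabelled probes and 2 inputs. The results come from the lists of the HID1 probe libraries. Mock and input are not analysed here.

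The formaldehyde list (replicate 1, a reversible cross-linker) holds 4557 peaks and the glutaraldehyde list (replicate 2, a cross-linker that is not reversed) holds 6306. Each cross-linker has 1 library, so cross-linker and library cannot be told apart and no difference between the lists has a replicate check. The counts below are descriptions with no test. Read depth is unknown from peak lists, and a peak's score is the authors' value from the peak caller, used here to rank peaks within 1 list. At the locus of HID1 itself, AT2G35747 by prior knowledge, the scores were 348 (rank 23) with formaldehyde and 2149.64 (rank 1) with glutaraldehyde.

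Cytochrome P450 enzymes are heme proteins that use oxygen and electrons from NADPH, usually passed on by a reductase in the endoplasmic reticulum, to oxidise small molecules. Plants have many of them, and they shape hormones, pigments, lignin, cutin, suberin and defence compounds. The number in a symbol is the family and the letter the subfamily, both set by protein similarity, and families are joined into clans. Many plant P450 genes stand in rows of close copies that arose by tandem duplication, among them many of the large CYP71 and CYP705 families.

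The share of P450 genes with a HID1 peak was close to that of all genes with formaldehyde and lay below it with glutaraldehyde. A gene was counted when a peak overlapped its body or the 1 kb on either side by at least 1 bp. The formaldehyde list had a peak at 38 of 214 P450 genes (17.8%), beside 16.9% of all protein-coding genes. The glutaraldehyde list had a peak at 44 (20.6%), beside 25.9% of all. At least 1 list had a peak at 78 members (36.4%, beside 38.0% of all), and 136 members had none. Peaks of both lists lay at 4 members (1.87%, beside 4.84% of all). These 4 were CYP76C2, CYP76C7, CYP71A28 and CYP716A1. At CYP76C7 alone did the peaks themselves overlap, which is 0.467% of the members beside 1.77% of all protein-coding genes.

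In gene bodies alone the formaldehyde list had 27 members (12.6%, beside 11.4% of all) and the glutaraldehyde list 28 (13.1%, beside 16.7% of all). At scores of 100 or more the counts were 11 members for formaldehyde (5.14%, beside 4.31% of all) and 13 for glutaraldehyde (6.07%, beside 6.6% of all). Among the 1000 highest scoring glutaraldehyde peaks the order turned, with 12 members (5.61%) beside 4.69% of all genes.

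The median length of P450 genes was 2051 bp (quartiles 1867 and 2450 bp), beside 2078 bp (1323 and 3030 bp) for all protein-coding genes. Among the 5056 protein-coding genes between the quartiles of P450 length, 15.5% had a formaldehyde peak, 25.9% a glutaraldehyde peak and 4.07% both. The UGT genes, whose products add sugars to many small molecules, are named by the same scheme. Of the 58 UGT genes, 12.1% had a formaldehyde and 24.1% a glutaraldehyde peak. The 124 ABC transporter genes, which are longer with a median of 4609 bp, had 31.5% and 30.6%. The transcription factor families lay at 13.0% and 27.0% for 115 MYB genes and at 14.9% and 35.8% for 67 WRKY genes. P450 genes and ABC transporters were thus the sets in which the shares of the lists lay closest together.

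**Figure D1:**
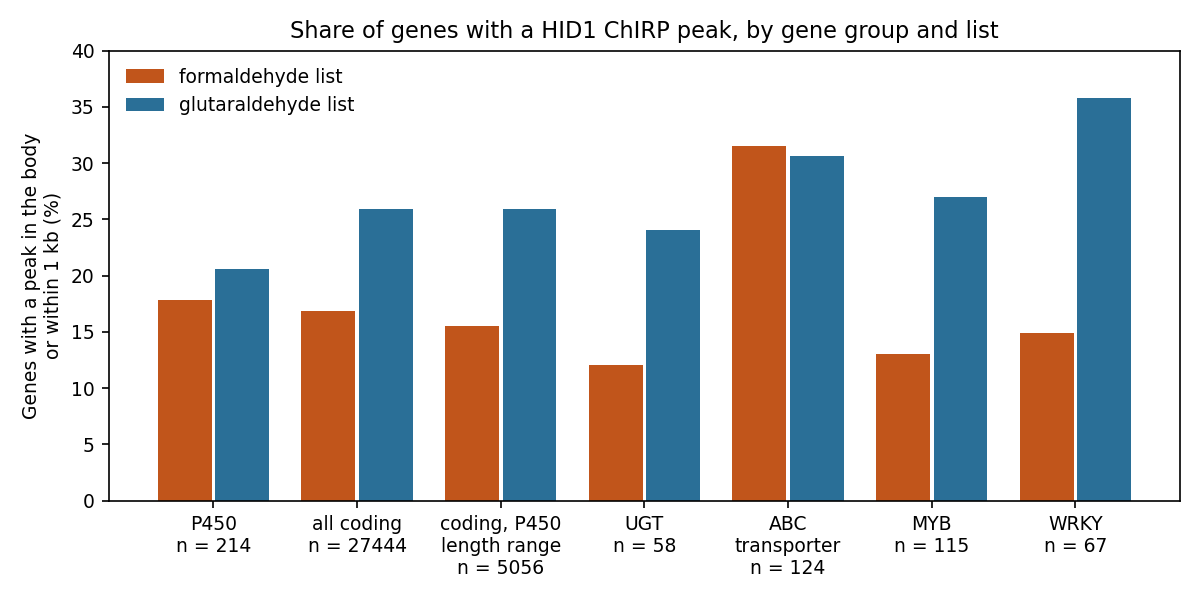
Bars give the percentage of genes with a peak in the body or within 1 kb (vertical axis, from 0) for P450 genes, all protein-coding genes, protein-coding genes in the quartile range of P450 length and 4 other gene families, with formaldehyde in orange and glutaraldehyde in blue. The P450 bars stand at 17.8% and 20.6%, and the bars of all protein-coding genes at 16.9% and 25.9%.

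Counted in bases, 4.77% of the P450 gene bodies lay in formaldehyde peaks, beside 3.92% over all protein-coding bodies, and 3.23% lay in glutaraldehyde peaks, beside 4.27%. In the flanks of 1 kb the values were 2.06% beside 1.82% for formaldehyde and 3.29% beside 3.89% for glutaraldehyde. P450 genes were thus above the value of all genes in the formaldehyde list and below it in the glutaraldehyde list, in bodies and flanks alike. The median distance from a member to its nearest formaldehyde peak was 6.89 kb (quartiles 1.79 and 16.3 kb), beside 8.30 kb for all genes. To the nearest glutaraldehyde peak it was 5.0 kb (1.51 and 12.2 kb), beside 4.36 kb. Close to the limit of the window, CYP705A33 and CYP712A1 lay 982 and 997 bp from a formaldehyde peak and were counted, and CYP86C3 and CYP81D1 at 1021 and 1034 bp were not. For glutaraldehyde CYP71B29 and CYP71A28 at 962 and 985 bp were counted, and CYP96A9 and CYP98A3 at 1038 and 1093 bp were not.

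CYP76C7, of the CYP76C subfamily whose studied members oxidise monoterpene alcohols, was the member with overlapping peaks. Its formaldehyde peak on chromosome 3 from 22594726 to 22596096 (TAIR10, as for all peaks below) lay within the gene body and scored 97.1, rank 1310. Its glutaraldehyde peak from 22595126 to 22595692 lay inside that peak, with a score of 50.3 and rank 6244 of 6306, close to the lowest score in the list. The overlap of 567 bp was the whole glutaraldehyde peak and 41.4% of the formaldehyde peak.

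At the other 3 genes the lists marked different places. CYP716A1, which oxidises triterpenes, had a glutaraldehyde peak of score 183, rank 182, within its body (chromosome 5, 14195570 to 14196519). Its formaldehyde peak, from 14197544 to 14198142 with a score of 78.5, covered 218 bp of the other end of the body, with 1024 bp between the peaks. CYP76C2, which oxidises linalool, had a glutaraldehyde peak with a score of 86.4 at 1 end of its body and a formaldehyde peak with a score of 54.7 at the other, 1400 bp apart. CYP71A28 had no peak in its body. Its glutaraldehyde peak (score 127) ended 985 bp from the gene on 1 side, and its formaldehyde peak (score 170) began 97 bp from the gene on the other, in the body of its neighbour CYP71A27. It was the member whose peaks reached a score of 100 in each list, but the peaks lay 3410 bp apart.

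**Figure D2:**
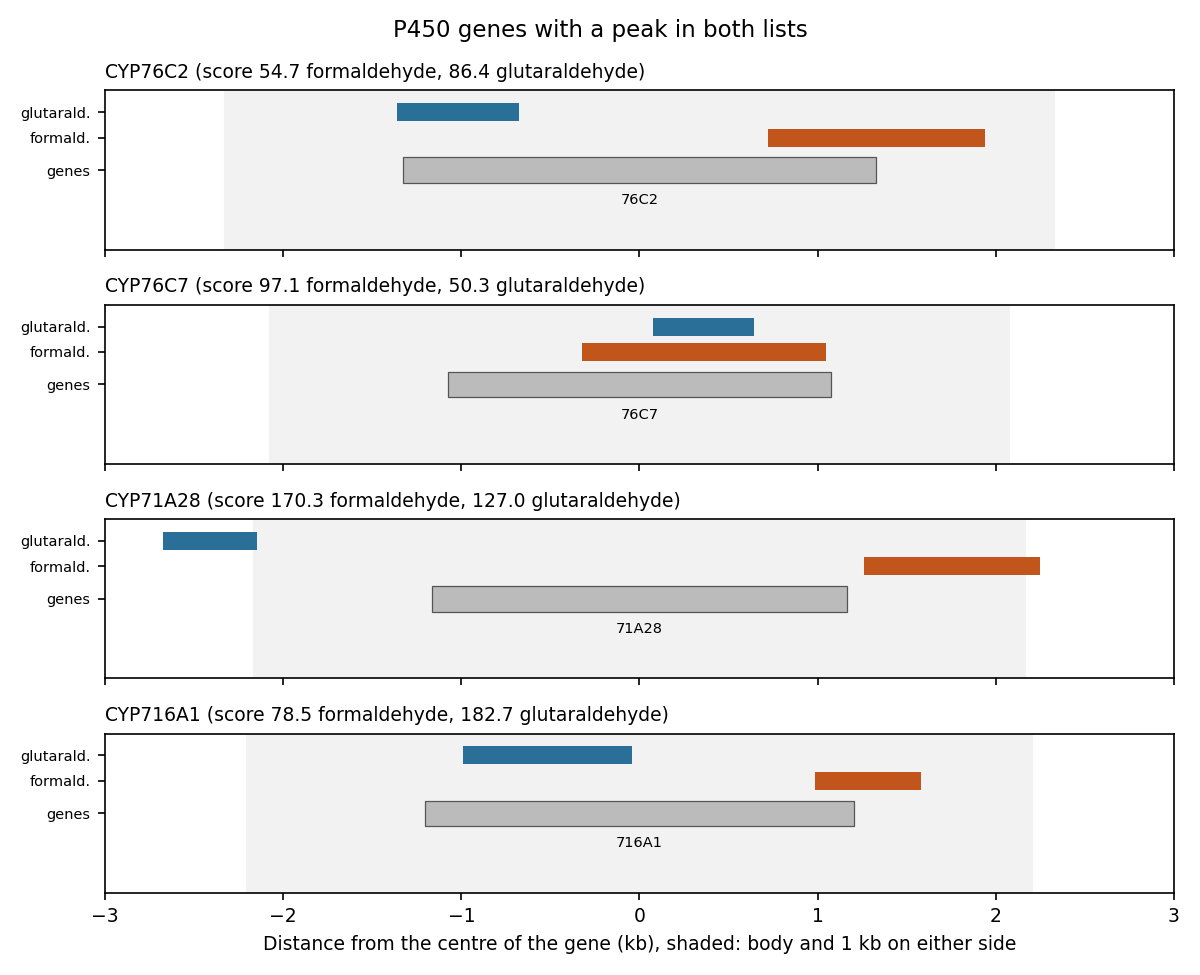
Maps of the 4 P450 genes with peaks of both lists, with distance from the centre of the gene in kb on the horizontal axis, the gene body in grey, formaldehyde peaks in orange and glutaraldehyde peaks in blue. The shading marks the body and 1 kb on either side, and at CYP76C7 alone does the blue bar (50.3) stand over the orange bar (97.1).

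The formaldehyde list had 31 distinct peaks at P450 genes and the glutaraldehyde list 43, each 0.68% of its list to 2 digits. A peak can lie in the windows of neighbours, and 7 formaldehyde peaks and 5 glutaraldehyde peaks lay at more than 1 member. P450 bodies were touched by 26 of the 31 formaldehyde peaks (83.9%) and by 30 of the 43 glutaraldehyde peaks (69.8%). Over all peaks in the windows of protein-coding genes, 89.3% of formaldehyde and 83.2% of glutaraldehyde peaks touched a body. These shares differ in kind, since a P450 flank can hold the body of another gene. Of the 13 glutaraldehyde peaks in P450 flanks alone, 5 lay in the body of another protein-coding gene and 8 in none. The gene table used gives no exons, introns, untranslated regions or strand, so a place in a body or upstream of a start is not given here.

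Peaks at P450 genes scored much like the rest of their list. With formaldehyde the median score was 73.3 (quartiles 62.7 and 102.2), beside 74.3 (59.4 and 103.4) for the list, and 8 of 31 reached 100 (25.8%, beside 26.9%). With glutaraldehyde it was 65.5 (58.9 and 111.8), beside 72.3 (59.3 and 96.6), and 12 of 43 reached 100 (27.9%, beside 22.8%). The glutaraldehyde peaks thus had a lower median and a higher upper quartile than their list.

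**Figure D3:**
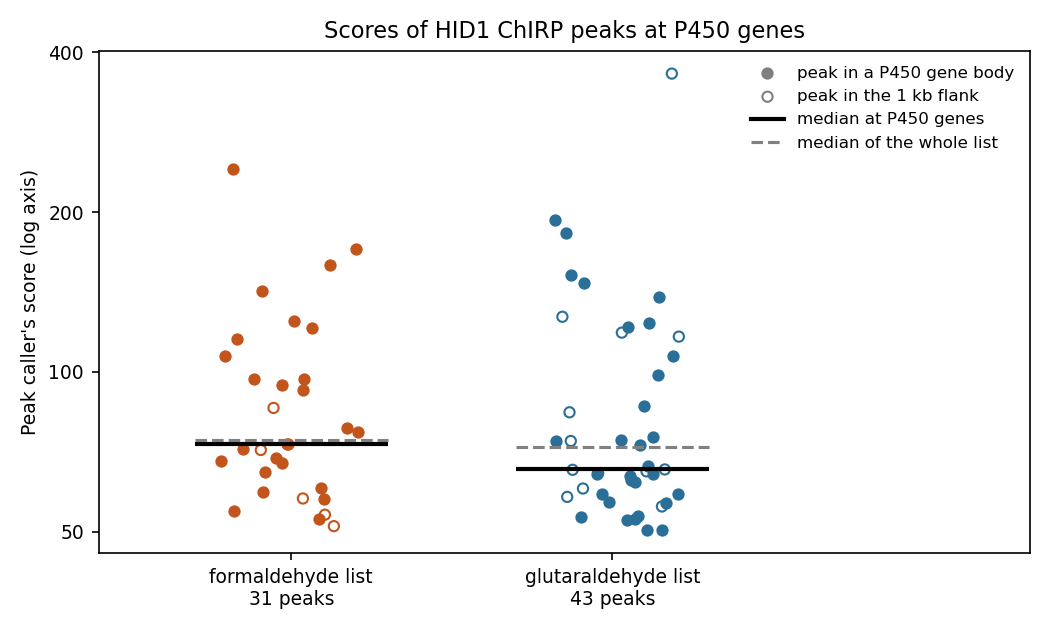
Each point is a distinct peak at a P450 gene with the peak caller's score on a log axis, filled where the peak touches a P450 body and open where it lies in the 1 kb flank alone. Black lines give the medians at P450 genes, 73.3 with formaldehyde and 65.5 with glutaraldehyde, and dashed lines the medians of the whole lists, 74.3 and 72.3.

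The highest formaldehyde score at a P450 gene was that of CYP711A1, also known as MAX1, which acts in the synthesis of strigolactones, hormones of shoot branching. The peak on chromosome 2 from 11142471 to 11144114 scored 241, rank 99, covered 890 bp of the body and ran on into the neighbouring gene IQD6. CYP71A27 followed with a peak of score 170 wholly in its body. CYP708A1 had a peak of 159 in its body and a weaker peak of 73.2 at the other end of the gene. A peak of score 142 in CYP712A2 also lay 275 bp from CYP93D1. The next were CYP71B31, an enzyme that oxidises linalool (125), CYP96A2 (121), and CYP71B4 with CYP71B26 in its flank (116). The other formaldehyde peak that reached 100, with a score of 107, touched 81 bp of CYP89A2, which is named here after its value was seen. Of the members at these peaks, CYP71A28, next to CYP71A27, had a glutaraldehyde peak too, and the others had none.

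With glutaraldehyde the highest score was the 365 at CYP71B14, rank 4 of 6306, on chromosome 5 from 8692728 to 8694006. That peak did not touch CYP71B14. It ended 624 bp from the gene and touched the body of AT5G25170, so the count at CYP71B14 rests on its flank. CYP79C2 had the highest score in a P450 body, 193 (rank 144), and a further peak of 62.0 in the same body. CYP716A1 (183) came next. CYP79B3, which turns tryptophan into indole-3-acetaldoxime on the way to indole glucosinolates, had 152 in its body. CYP71B7 had 147 and a weaker body peak of 62.5 beside it. CYP77A6, which hydroxylates cutin monomers, had 138 in a peak that also touched the P450 gene UNE9. CYP71A28 (127), CYP71B23 (124), and CYP96A10 with CYP96A11 in its flank (121) complete the 10 members with the highest scoring peak.

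By family, 26 of 38 had a peak at a member in at least 1 list. Both lists had peaks in 9 families, formaldehyde alone in 8 and glutaraldehyde alone in 9. The 12 families with no peak at a member hold 29 members. The largest of them are CYP702, with 6 genes, CYP94, with 6 genes that include the enzymes oxidising jasmonoyl-isoleucine, and CYP710, with 4 genes of sterol desaturation. CYP90 and CYP84 are also among the 12, but only by their members. Genes of these families under other symbols (DWF4 and ROT3 of CYP90, FAH1 of CYP84) had peaks.

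CYP71, with 48 genes that include enzymes of camalexin and terpene metabolism, had formaldehyde peaks at 8 (16.7%) and glutaraldehyde peaks at 13 (27.1%), near the shares of all genes. CYP705, with 24 genes, some of them acting on triterpenes in roots, had formaldehyde peaks at 8 (33.3%) and glutaraldehyde peaks at 2 (8.33%). The 8 genes of CYP705 shared 5 distinct peaks with scores from 53.8 to 92.6, and the glutaraldehyde peaks scored 52.9 and 53.4. CYP81, with 16 genes that include modifiers of indole glucosinolates, was the other way round, with 2 (12.5%) and 7 (43.8%). Its glutaraldehyde scores ran from 52.7 to 74.3, so none reached 100. CYP91A2, which has the synonym CYP81F1, was counted by its symbol in a family of its own. It had a glutaraldehyde peak of 64.5 and is not among these 16 genes. The shares of all genes were 16.9% and 25.9%. Whether the families differ was not tested, and genes of a family that share a peak are not independent.

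Among families of middle size, too small to set a share beside those of all genes, CYP76 had peaks at 5 of 8 genes. The 3 genes with formaldehyde and 4 with glutaraldehyde rest on 2 and 3 distinct peaks. CYP79, the entry enzymes of glucosinolate and related synthesis, had glutaraldehyde peaks at 3 of 7 genes and no formaldehyde peak. CYP72 had formaldehyde peaks at 3 of 9 and CYP86, fatty acid hydroxylases of cutin and suberin, at 2 of 10, with no glutaraldehyde peak in either. CYP96 had 1 and 2 of 12. In the CYP71 clan as a whole 28 of 141 genes had a formaldehyde peak (19.9%) and 36 a glutaraldehyde peak (25.5%). In the CYP86 clan these were 3 and 3 of 31 (9.68% each), in the CYP72 clan 3 and 1 of 18, and in the CYP85 clan 2 and 2 of 15. The glutaraldehyde share of the CYP71 clan was thus near the 25.9% of all genes. Among members that of the CYP86 clan was lower, but its 3 genes rest on 2 distinct peaks. The CYP72 and CYP85 clans are too small to set beside all genes. The CYP85 count also leaves out CYP85 and CYP90 genes listed under other symbols. Of those, BR6OX2, DWF4 and ROT3 had glutaraldehyde peaks, and BR6OX1 and CPD had none. The CYP71 clan count likewise leaves out genes under other symbols, among them UNE9 (CYP77A7), FAH1 (CYP84A1) and PAD3 (CYP71B15). UNE9 had a glutaraldehyde peak, FAH1 peaks of both lists and PAD3 none. CYP91A2 (CYP81F1), with a glutaraldehyde peak, was placed in no clan.

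**Figure D4:**
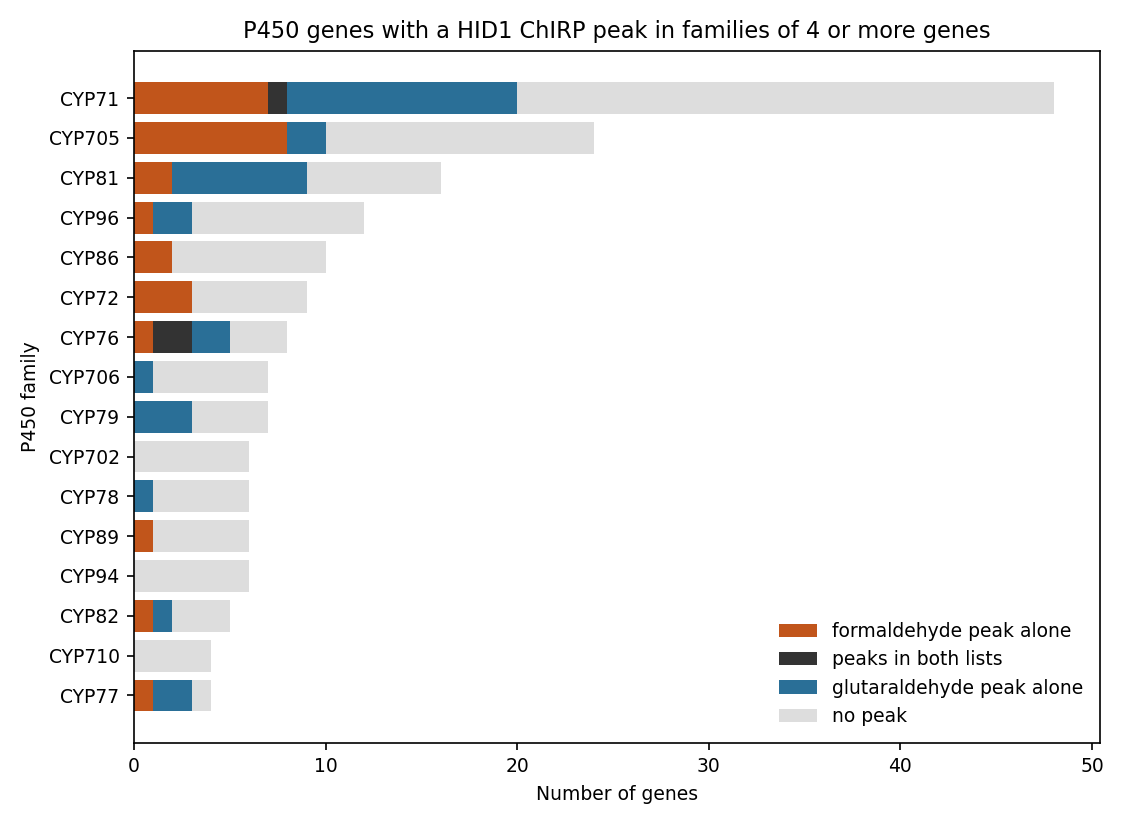
Bars give the number of genes (horizontal axis) in each P450 family of 4 or more genes, divided into genes with a formaldehyde peak alone, peaks of both lists, a glutaraldehyde peak alone and no peak. The CYP705 bar has 8 genes with formaldehyde and 2 with glutaraldehyde, the CYP81 bar 2 and 7, and CYP702, CYP94 and CYP710 have none.

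Genes of known pathways were read from 10 role lists. Of 78 symbols 65 were members, 1 of them, CYP91A2 (CYP81F1), through a synonym, and 9 of these (13.8%) had a formaldehyde and 13 (20.0%) a glutaraldehyde peak, beside 16.9% and 25.9% of all genes. Each list is too short for its own share to be read against these values. Glucosinolate genes had glutaraldehyde peaks at 4 of 11 and no formaldehyde peak. These were CYP79B3 (152), CYP79F2, which starts aliphatic glucosinolates from methionine chains (98.8, with 58 bp of the body touched), CYP91A2 (64.5, in the flank) and CYP81F2, which modifies indole glucosinolates (52.7).

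Hormone genes had single peaks. In cytokinin, strigolactone and gibberellin modification 3 of 6 genes had a peak, CYP711A1 (241) and CYP72A9, a gibberellin hydroxylase (67.5), with formaldehyde, and CYP714A1, which inactivates gibberellin (50.4), with glutaraldehyde. The CYP72A9 peak also touched 8 bp of CYP72A8. Of the 3 brassinosteroid genes under CYP symbols, CYP72C1, which lowers brassinosteroid levels, had a formaldehyde peak of 96.8 in its body, and the other two had none. The 4 oxylipin and jasmonate genes and the 4 genes of camalexin and other indolic defence compounds had no peak in either list.

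Of 11 genes for cutin, suberin, wax and sporopollenin, CYP86B1, an enzyme of suberin in roots and seed coats, had a formaldehyde peak of 77.1 in its body. CYP77A6 (138) and CYP703A2, which acts in pollen walls (63.7), had glutaraldehyde peaks. Of 9 terpene genes, CYP71B31, CYP76C2 and CYP716A1 had formaldehyde peaks, and CYP76C1 (the 86.4 peak of CYP76C2, in its flank), CYP76C2 and CYP716A1 glutaraldehyde peaks. Of 7 carotenoid and sterol genes, CYP51G1, a demethylase of sterol synthesis, had a formaldehyde peak of 85.5 in its flank at 398 bp, and CYP97B3, of the carotene hydroxylase family, a glutaraldehyde peak of 56.8 in its body. Of 4 phenylpropanoid genes, CYP98A3, a hydroxylase of lignin synthesis, had a formaldehyde peak of 51.2 in its flank, and CYP98A8, which acts in pollen phenolamides, a glutaraldehyde peak of 107 in its body. Of 6 CYP78A genes, which govern organ and seed size, CYP78A5 had a glutaraldehyde peak of 65.4 at 938 bp.

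Tandem clusters were runs of 2 or more members of 1 family with at most 1 other protein-coding gene between neighbours. They took in 114 members (53.3%) in 34 clusters, 19 of them pairs and the largest of 9 genes. In clusters 19.3% of genes had a formaldehyde peak and 22.8% a glutaraldehyde peak, beside 16.0% and 18.0% of the 100 genes outside. Neighbours share windows, and distinct peaks per 100 genes were 13.2 and 20.2 in clusters and 16.0 and 20.0 outside. By genes clusters were higher in both lists, and by distinct peaks they were lower with formaldehyde and equal to within 1 peak per 100 genes with glutaraldehyde. The labels do not state how reads that map to several close copies were treated, and their part in these counts was not tested.

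Formaldehyde peaks lay in 13 clusters and glutaraldehyde peaks in 18. Both were in 9 clusters, and 12 clusters with 27 genes had none. In 6 clusters 3 or more genes had a peak, and in all 6 both lists were present with peaks that did not overlap. Over all protein-coding genes, 1329 had peaks of both lists and 485 had overlapping ones, so peaks apart were the more frequent case there too. The 6 clusters were picked by their number of genes with a peak, and clusters of other gene families were not counted.

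In the CYP76C cluster on chromosome 2 (CYP76C4, CYP76C1, CYP76C2, CYP76C3) the formaldehyde peak from 18781371 to 18782590, score 54.7, spanned the gap between CYP76C2 and CYP76C3, and the glutaraldehyde peak lay at the other end of CYP76C2. In the CYP705 cluster of 7 genes on chromosome 3 a formaldehyde peak of 73.3 in CYP705A20 lay in the windows of CYP705A19 and CYP705A21 too, and a glutaraldehyde peak of 52.9 lay in CYP705A15. CYP705A18, CYP705A22 and CYP705A23 had none. The CYP705 cluster of 4 genes had formaldehyde peaks at CYP705A30 (71.6, with 61 bp in the body) and in CYP705A32 (57.7, with CYP705A33 at 982 bp), and a glutaraldehyde peak in CYP705A28 (53.4).

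In the CYP71A cluster of 6 genes on chromosome 3 the lists alternated along the row. Glutaraldehyde peaks lay in CYP71A25 (56.8) and from the edge of CYP71A23 (74.2, with 45 bp in the body) towards CYP71A22, and a formaldehyde peak lay in CYP71A24 (68.9). CYP71A26 and CYP71A21 at the ends had none. The CYP81 cluster on chromosome 4 had a formaldehyde peak in CYP81H1 (52.8) and glutaraldehyde peaks in CYP81D5 (53.4) and at the edge of CYP81D2 (74.3, with 247 of its 455 bp in the body and CYP81D3 in the flank), with none at CYP81D4 and CYP81D8. In the CYP71B cluster on chromosome 5 formaldehyde peaks lay in CYP71B11 (59.3) and CYP71B13 (64.8), and a glutaraldehyde peak of 119 lay 394 bp from CYP71B12. Of the 16 distinct peaks in these 6 clusters, the peak at CYP71B12 reached a score of 100.

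**Figure D5:**
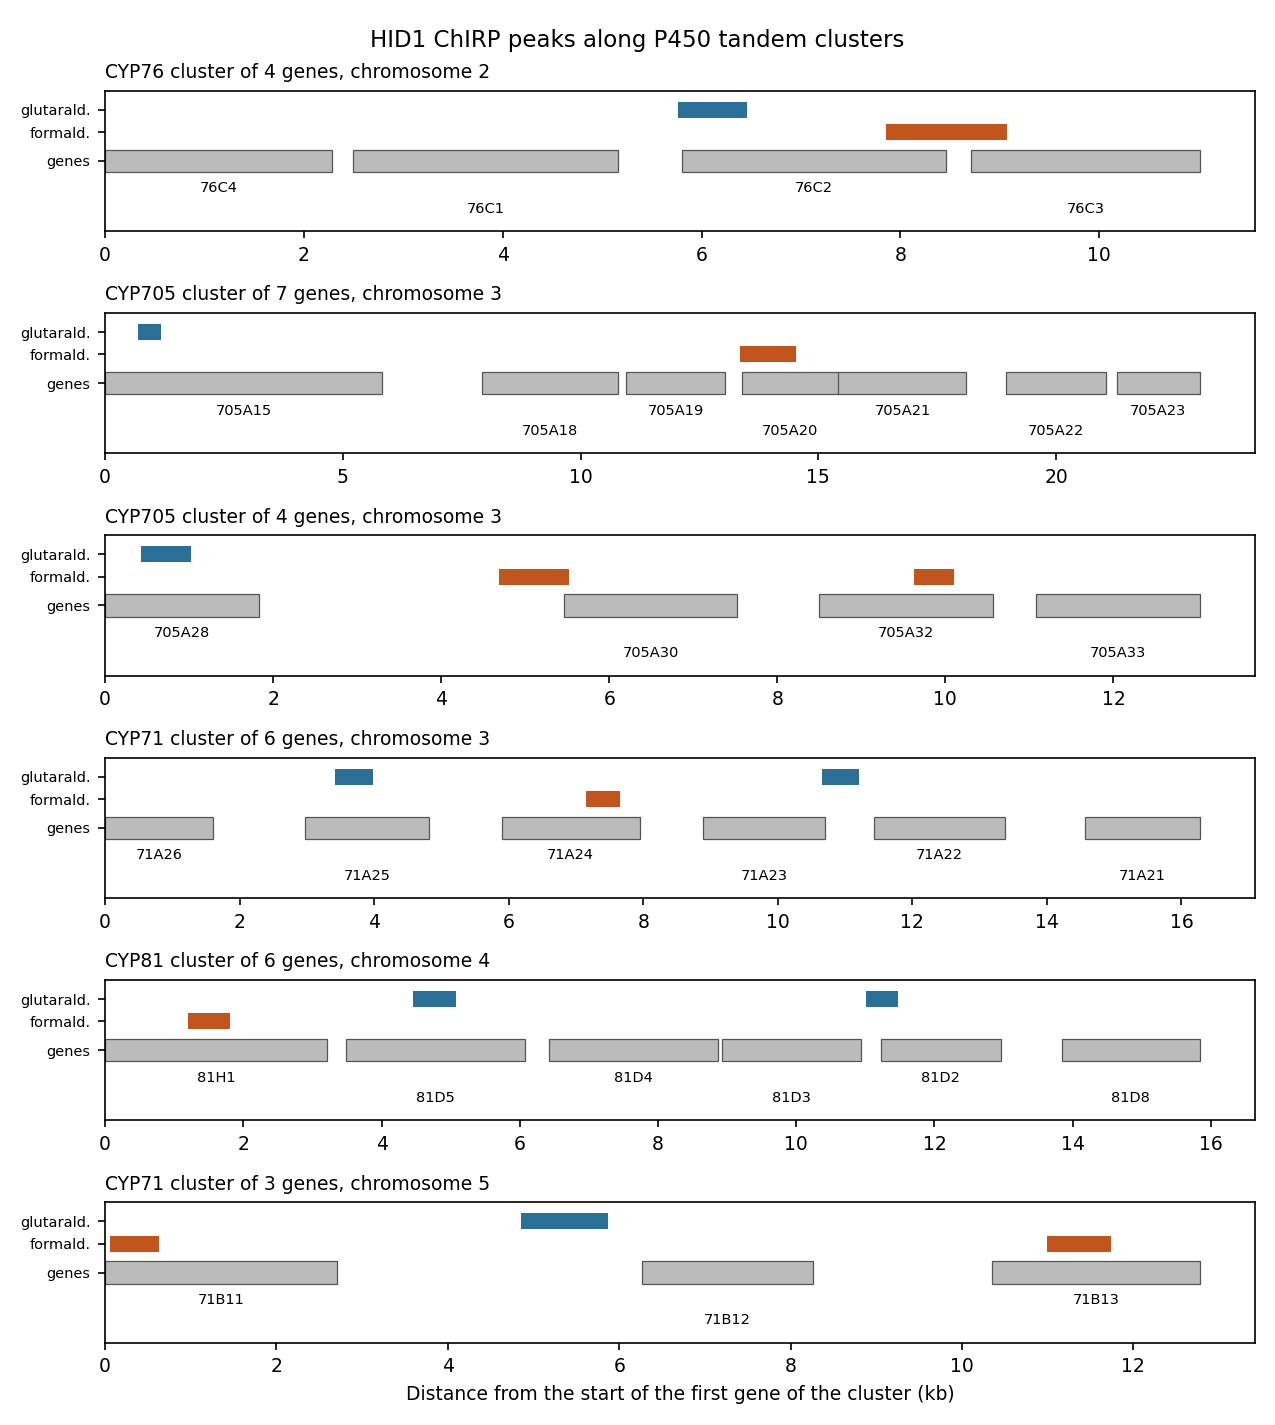
Maps of the 6 tandem clusters in which 3 or more genes had a peak, with distance from the start of the cluster's leftmost gene in kb on the horizontal axis, genes in grey (symbols without CYP), formaldehyde peaks in orange and glutaraldehyde peaks in blue. Orange and blue bars stand over different places in every map, with scores from 52.8 to 119.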

How the data were processed

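ChIRP was done per the labels' protocols on 0.3 g of seeds fixed for 20 min with 1% formaldehyde or 1% glutaraldehyde, with paired reads of 150 bp. The authors deposited 1 peak list for each HID1 probe library, with the score of each peak from the peak caller. Bowtie2 2.1.0, MACS 1.4.2 and the build TAIR10 were used, per the submitters' processing notes. The control for peak calling, the depth and the handling of reads with several matches are not stated there. The lowest score in the deposited lists is 50. Per the design text each genotype had 3 biological replicates, whereas the labels list 2 HID1 probe libraries, which differ in cross-linker. Nothing says that these came from separate seed batches.

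Genes came from the RefSeq table of TAIR10.1, whose nuclear coordinates are those of TAIR10 from background knowledge, so printed coordinates are those of the peaks. AT2G35747, taken as HID1, lay in the peak of rank 1 of the glutaraldehyde list. Overlaps were counted in Python 3.11.15 with pandas 2.3.3, after a test on simulated data. With 1 library per cross-linker no test was run. The genes named are those with peaks of both lists, the 10 members with the highest scoring peak of each list, members of role lists with a peak, the tandem clusters with 3 or more such genes and CYP71B14. Members, lists and comparisons were chosen with earlier results of these data known. The tables used hold no sequences, and none are printed.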

Additional observations from a re-analysis of the deposited data

How the results depend on the processing

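Of 39 recomputed counts, 24 stayed within 1.5 times the value reported, and these included every count for flanks of 500 bp, for peak midpoints and for 1 count per tandem cluster, and the count of genes in tandem clusters under all 3 of its alternatives. With 1 count per tandem cluster the unit changes from 214 genes to 134 clusters and single genes. Its shares, 21.6% with formaldehyde and 26.9% with glutaraldehyde, are therefore not comparable with those of genes. Flanks of 2 kb moved the number of members with peaks of both lists from 4 to 13 (6.07%, beside 8.27% of all protein-coding genes). Gene bodies alone moved the glutaraldehyde count to 28. A score of 100 or more gave 11 members with formaldehyde, 13 with glutaraldehyde, 1 with both and 23 with either. The share with both was 0.467%, beside 0.361% of all genes, and the share with either 10.7%, beside 10.5%. At this cut the share with both was thus not below that of all genes, but it rests on 1 member. The 1000 highest scoring peaks of each list gave 10, 12, 1 and 21. The shares were 4.67%, 5.61%, 0.467% and 9.81%, beside 3.36%, 4.69%, 0.215% and 7.83% of all genes. With these 1000 peaks the glutaraldehyde share of P450 genes lay above that of all genes, on 12 members. At scores of 100 or more it lay below, at 6.07% beside 6.6%, so the order depends on the cut. Genes matched through synonyms raised the count with both lists from 4 of 214 to 7 of 227, beside 4.84% of all protein-coding genes. The low share with both lists thus depends in part on which symbols were taken. Peaks that had to overlap by 1 bp gave 1 member with both, and overlap over 50% of each peak gave 0. With either list left out, the members with a peak numbered 38 to 44. The causes of these shifts were not tested, beyond the fewer peaks or wider windows that the alternatives themselves set. No paired analysis was possible because each cross-linker has 1 library and mock and input are not analysed here. Depth is unknown, so a gene without a peak was not called at these depths and is not shown to lack HID1.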

Other observations

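A further 13 P450 genes stand in the gene table under other symbols and were not members. Of these, 3 had a formaldehyde and 7 a glutaraldehyde peak, beside 16.9% and 25.9% of all protein-coding genes. The 3 with formaldehyde peaks had peaks of both lists, the brassinosteroid oxidase gene BR6OX2 (CYP85A2), the brassinosteroid gene ROT3 (CYP90C1) and the lignin gene FAH1 (CYP84A1), beside 4 of the 214 members and 4.84% of all protein-coding genes. At BR6OX2 the peaks lay outside the body on chromosome 3, from 11814800 to 11815396 with formaldehyde (score 54.4) and from 11814682 to 11815286 with glutaraldehyde (score 76.6), and overlapped. DWF4 (CYP90B1), which encodes an early enzyme of brassinosteroid synthesis, had a glutaraldehyde peak in its body with a score of 56.3. The other glutaraldehyde peaks lay in the flanks of C4H (87.6) and LUT1 (64.0) and at UNE9 (138, the peak also counted at CYP77A6). CPD, BR6OX1, BAS1, PAD3, HPL1 and TT7 had no peak. These genes were looked at after the counts of the members had been seen, and no test was run.

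Of 17 P450 entries that are pseudogenes by type or symbol, 5 had a formaldehyde peak and 2 a glutaraldehyde peak, beside 25.6% and 13.5% of all 4843 entries typed as pseudogenes. The sets differ in kind, since CYP71B30P, among the entries with a formaldehyde peak, is a pseudogene by symbol but typed as protein-coding. The formaldehyde peak at CYP71B30P (125) is that of CYP71B31 and the glutaraldehyde peak at CYP705A14P (52.9) that of CYP705A15, both outside the entry's body and already counted at these members. No test was run. CYP51G2, a relative of CYP51G1 listed as a transcribed pseudogene, had overlapping peaks of both lists in its body on chromosome 2, from 7537285 to 7538224 (score 99.9) and from 7537519 to 7538101 (score 55.2). Among the members themselves, CYP76C7 was the gene with overlapping peaks.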
